A study of Mus musculus with 20 samples.

Results

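This report follows 10 genes of the type I interferon antiviral programme through the livers of 20 male mice: the oligoadenylate synthases Oas1a, Oas2 and Oas3, the synthase-like genes Oasl1 and Oasl2, the Ifit genes Ifit1, Ifit2 and Ifit3, the ubiquitin-like modifier Isg15 and Rsad2, which encodes viperin. The genes were listed by name and family, with earlier results of these data known. Each was read from its brightest probe set that carries its symbol alone. Of the 10, 9 had such a probe set among 18193 named genes, and 8 were bright enough to be tested among 8774 genes.

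The mice carried MCAD-/- (loss of Acadm, the gene of medium-chain acyl-CoA dehydrogenase, which opens the oxidation of medium-chain fatty acids in mitochondria) or were wild type (WT). The 4 groups of 5 mice were MCAD-/- given LPS, WT given LPS, MCAD-/- given vehicle and WT given vehicle. LPS is lipopolysaccharide, a component of the bacterial cell wall, at a dose of 100 µg per 20 g body weight. All mice were 50 to 60 days old, had a mixed BL6/SV129 background and fasted for 12 h after the injection. Whether MCAD-/- and WT mice came from shared litters is not stated in the labels, so Acadm loss and differences in background between the genotypes cannot be told apart. Fatty acid oxidation carries the liver through a fast, and the design asks how its loss and an acute inflammatory stimulus combine there.

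LPS is sensed by the receptor TLR4, and part of that signal leads to interferon beta. Secreted interferon binds the receptor made of Ifnar1 and Ifnar2, and a complex that contains Stat2 and Irf9 then switches on target genes through a DNA element, the interferon-stimulated response element (ISRE). The Oas enzymes bind double-stranded RNA and make short oligoadenylates, a signal against viral RNA. Of the Oas-like genes, mouse Oasl1 is known to restrain the translation of Irf7. Ifit proteins bind foreign RNA, viperin makes a nucleotide that stops viral polymerases, and Isg15 is attached to proteins during infection. In the liver this programme runs in hepatocytes as well as in resident macrophages and endothelial cells.

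The stretches below show the ISRE core in the promoters of those genes that held it. RefSeq promoters of 300 bases (250 before the start and 50 after it, build GRCm38.p6) were at hand for 9 of the 10 genes, all but Oas2. The ISRE core was searched as GAAANNGAAA and, on the other strand, as TTTCNNTTTC. It was present for 6 of the 9 genes, and for 1079 of all 27025 genes with a promoter. Some genes have several windows, and it was in 3.44% of all 32851 promoter windows. The windows run 5′ to 3′ on the gene's strand, and capitals mark the core, where neighbouring matches can overlap.
Oas1a, chr5:120907526-120907565 on the minus strand: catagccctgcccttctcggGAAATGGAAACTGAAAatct
Oas3, chr5:120777705-120777754 on the minus strand: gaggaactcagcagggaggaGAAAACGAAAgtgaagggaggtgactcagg
Ifit1, chr19:34640765-34640833 on the plus strand: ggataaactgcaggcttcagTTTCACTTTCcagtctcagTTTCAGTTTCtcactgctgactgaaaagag
Ifit3, chr19:34583353-34583436 on the plus strand: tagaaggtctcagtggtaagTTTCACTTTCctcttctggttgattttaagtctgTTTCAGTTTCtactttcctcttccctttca
Isg15, chr4:156200855-156200916 on the minus strand: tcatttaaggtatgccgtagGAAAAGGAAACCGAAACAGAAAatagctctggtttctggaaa
Rsad2, chr12:26456543-26456592 on the minus strand: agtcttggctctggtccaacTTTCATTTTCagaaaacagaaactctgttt

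Isg15 held 3 overlapping copies, Oas1a 2 overlapping copies and Ifit1 and Ifit3 2 separate copies each. Oas3 and Rsad2 held 1 copy. The copies of Oas1a lay closest to the start, with their first bases 20 and 14 bases before it, and those of Ifit3 lay farthest, at 156 and 122 bases. Those of Rsad2, Ifit1, Isg15 and Oas3 lay between, with the first copy 120, 104, 78 and 75 bases before the start. No core was in these windows of Oasl1, Oasl2 or Ifit2. The gamma-activated site, searched as TTCNNNGAA on both strands, was in 8.30% of all windows and for 2582 of 27025 genes. Among the 9 genes it was found in Oas1a and in 1 of the 2 windows of Ifit2, with 2 copies in each. The Oas and Oas-like genes all lie on chromosome 5 and the Ifit genes on chromosome 19, while Isg15 lies on chromosome 4 and Rsad2 on chromosome 12.

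**Figure D1:**
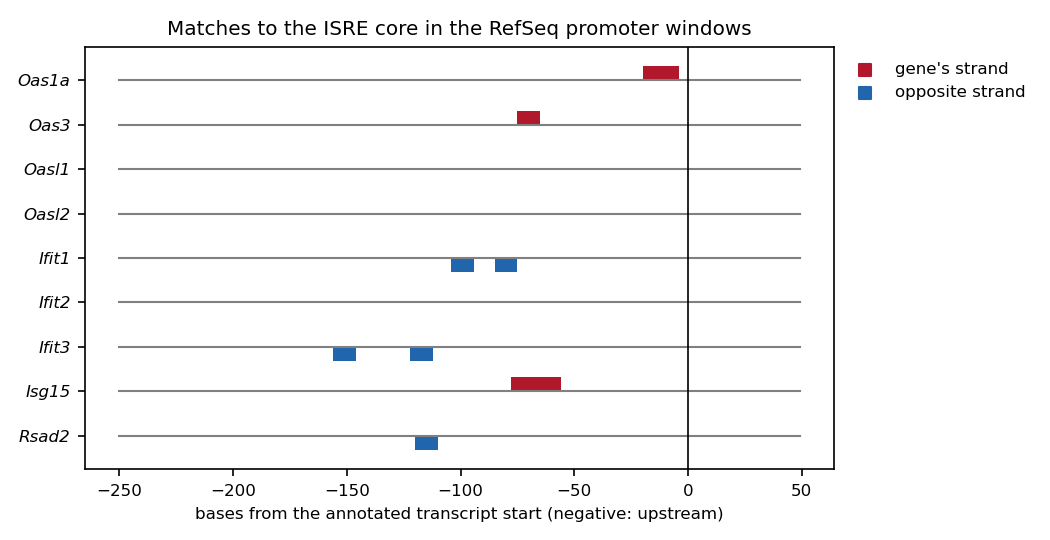
Positions of the ISRE core in the promoter windows of the genes. The horizontal axis gives bases relative to the RefSeq start, each row is a promoter, and each mark is a match on either strand. The matches of Oas1a sit within 20 bases before the start, and the first match of Ifit3 lies 156 bases before it.

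Each array measured the total liver RNA of 1 mouse, and values are GCRMA intensities in arbitrary units on a linear scale. Between 30.3% and 32.4% of probe sets exceeded 16 units on an array. Values under 16 units lie near the floor to which this method draws dim probe sets, so a difference between groups under it carries little information about size. Acadm separated the genotypes in both injections. With vehicle it lay at 9.03 to 80.2 units in MCAD-/- livers and at 3106 to 4022 units in WT livers, and with LPS at 14.3 to 218 against 1450 to 2375 units (exact permutation test, two-sided, p = 0.00794 each, the smallest that 5 against 5 allows). On 2 arrays, WT vehicle 3 and WT LPS 4, the actin control had a log2 3′ to 5′ ratio of 3.18 and 3.69, against 1.35 to 2.34 on the others. Called differences of the 8 genes that use WT mice are also given without these 2 arrays, while the gene lists were not recomputed without them. The number of mice limits the precision.

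Among the oligoadenylate synthases, Oas1a rose with LPS in both genotypes and reached at least 258 units in every LPS mouse. It measured 258, 359, 283, 369 and 328 units in the 5 MCAD-/- LPS livers and 897, 694, 769, 1151 and 423 units in the 5 WT LPS livers. With vehicle it measured 23.2, 30.8, 15.7, 22.4 and 25.9 units in MCAD-/- livers and 38.7, 24.4, 13.7, 17.3 and 25.8 units in WT livers. No LPS mouse overlapped a vehicle mouse of its genotype. LPS raised Oas1a 13.7-fold in MCAD-/- livers (log2 3.78 ± 0.26, SE, limma adjusted p = 2.51e-10) and 33.2-fold in WT livers (log2 5.05 ± 0.26, adjusted p = 3.60e-12, n = 5 per group).

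Oas2, another synthase, stayed close to the floor. It measured 13.1 to 23.3 units in MCAD-/- LPS livers, 18.6 to 29.2 units in WT LPS livers, 9.43 to 16.99 units in MCAD-/- vehicle livers and 10.8 to 16.2 units in WT vehicle livers. LPS raised it 1.78-fold in WT livers, where the groups did not overlap (log2 0.83 ± 0.18, adjusted p = 0.000502). Of the 5 WT vehicle livers 4 lay under 16 units, and with values under 16 units set to 16 the difference was log2 0.47 (adjusted p = 0.00222). In MCAD-/- livers the groups overlapped and the rise was 1.40-fold (log2 0.49 ± 0.18, adjusted p = 0.0231). The call in MCAD-/- livers was lost with arrays centred on their medians (log2 0.40, adjusted p = 0.0719), with a further quantile normalization (log2 0.33, adjusted p = 0.136) and with values under 16 units set to 16 (log2 0.15, adjusted p = 0.280). It was also lost without any of 4 mice: MCAD-/- vehicle 1 (adjusted p = 0.0518) and 4 (0.0704), and MCAD-/- LPS 4 (0.0546) and 5 (0.0782). Oas3, the largest of the synthases, never exceeded 16 units on any of the 20 arrays and was not tested. It lay at 3.99 to 6.87 units in MCAD-/- LPS livers, 4.91 to 10.7 in WT LPS livers, 3.04 to 3.71 in MCAD-/- vehicle livers and 3.34 to 4.18 in WT vehicle livers. The LPS and vehicle ranges of Oas3 did not overlap within a genotype, but all lie under the floor.

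The Oas-like genes gave clear signals with LPS and lay at or near the floor with vehicle. Oasl2, a mouse gene whose product keeps synthase activity, measured 120.1, 171, 155, 193 and 302 units in MCAD-/- LPS livers and 356, 316, 325, 218 and 236 units in WT LPS livers. Vehicle values were 5.40 to 12.5 units in MCAD-/- livers and 2.58 to 6.38 units in WT livers. It was at least 11.2-fold higher with LPS in MCAD-/- livers (adjusted p = 3.31e-11) and at least 17.8-fold higher in WT livers (adjusted p = 2.60e-13). "At least" marks folds computed with values under 16 units set to 16, where all 5 mice of the dimmer group lay under it. Oasl1 measured 23.4 to 62.7 units in MCAD-/- LPS livers and 32.2 to 49.2 units in WT LPS livers, against 7.31 to 20.4 and 5.70 to 8.47 units with vehicle in MCAD-/- and WT livers. It was 2.94-fold higher with LPS in MCAD-/- livers (log2 1.56 ± 0.25, adjusted p = 1.58e-05), a fold that depends on the floor since 4 of 5 vehicle mice lay under it. In WT livers it was at least 2.60-fold higher (adjusted p = 1.71e-08).

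All 3 Ifit genes rose with LPS in both genotypes. Ifit3, a partner of other Ifit proteins, measured 415, 464, 444, 671 and 597 units in MCAD-/- LPS livers and 611, 665, 515, 527 and 455 units in WT LPS livers. With vehicle it measured 86.0, 105, 49.7, 72.7 and 68.4 units in MCAD-/- livers and 146, 51.8, 101, 53.9 and 79.9 units in WT livers. The rise was 6.88-fold in MCAD-/- livers (log2 2.78 ± 0.24, adjusted p = 7.74e-09) and 6.86-fold in WT livers (log2 2.78 ± 0.24, adjusted p = 9.05e-09). Levels of different probe sets are not comparable as RNA amounts, since each has its own probes.

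Ifit1, which binds RNA caps that lack the host's methylation, measured 49.1, 109, 84.1, 181 and 133 units in MCAD-/- LPS livers and 145, 111, 111, 159 and 109 units in WT LPS livers. With vehicle it measured 20.3, 29.1, 13.0, 21.8 and 25.5 units in MCAD-/- livers and 72.9, 24.7, 54.8, 21.7 and 39.5 units in WT livers. LPS raised it 4.79-fold in MCAD-/- livers (log2 2.26 ± 0.33, adjusted p = 6.85e-06) and 3.26-fold in WT livers (log2 1.70 ± 0.33, adjusted p = 0.000172), without overlap in either genotype. Ifit2, which binds RNA together with its relatives, measured 34.3 to 77.0 units in MCAD-/- LPS livers and 51.3 to 128 units in WT LPS livers. Its vehicle values all lay under the floor, at 8.82 to 12.2 units in MCAD-/- livers and 4.95 to 8.16 units in WT livers. It was at least 3.04-fold higher with LPS in MCAD-/- livers (adjusted p = 1.07e-07) and at least 4.49-fold higher in WT livers (adjusted p = 2.13e-10).

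Rsad2 was the gene whose highest group was MCAD-/- LPS and not WT LPS. It measured 120.0, 169, 221, 263 and 191 units in MCAD-/- LPS livers and 101, 83.8, 58.5, 151 and 68.5 units in WT LPS livers. With vehicle it measured 57.2, 68.3, 49.9, 67.6 and 61.2 units in MCAD-/- livers and 57.4, 24.0, 44.1, 22.2 and 35.8 units in WT livers. LPS raised it 3.08-fold in MCAD-/- livers (log2 1.63 ± 0.27, adjusted p = 2.55e-05) and 2.54-fold in WT livers (log2 1.35 ± 0.27, adjusted p = 0.000205). In WT livers the lowest LPS value, 58.5 units, lay just above the highest vehicle value, 57.4 units. Isg15 has no value here, because the probe set that names it also names Gm9706.

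**Figure D2:**
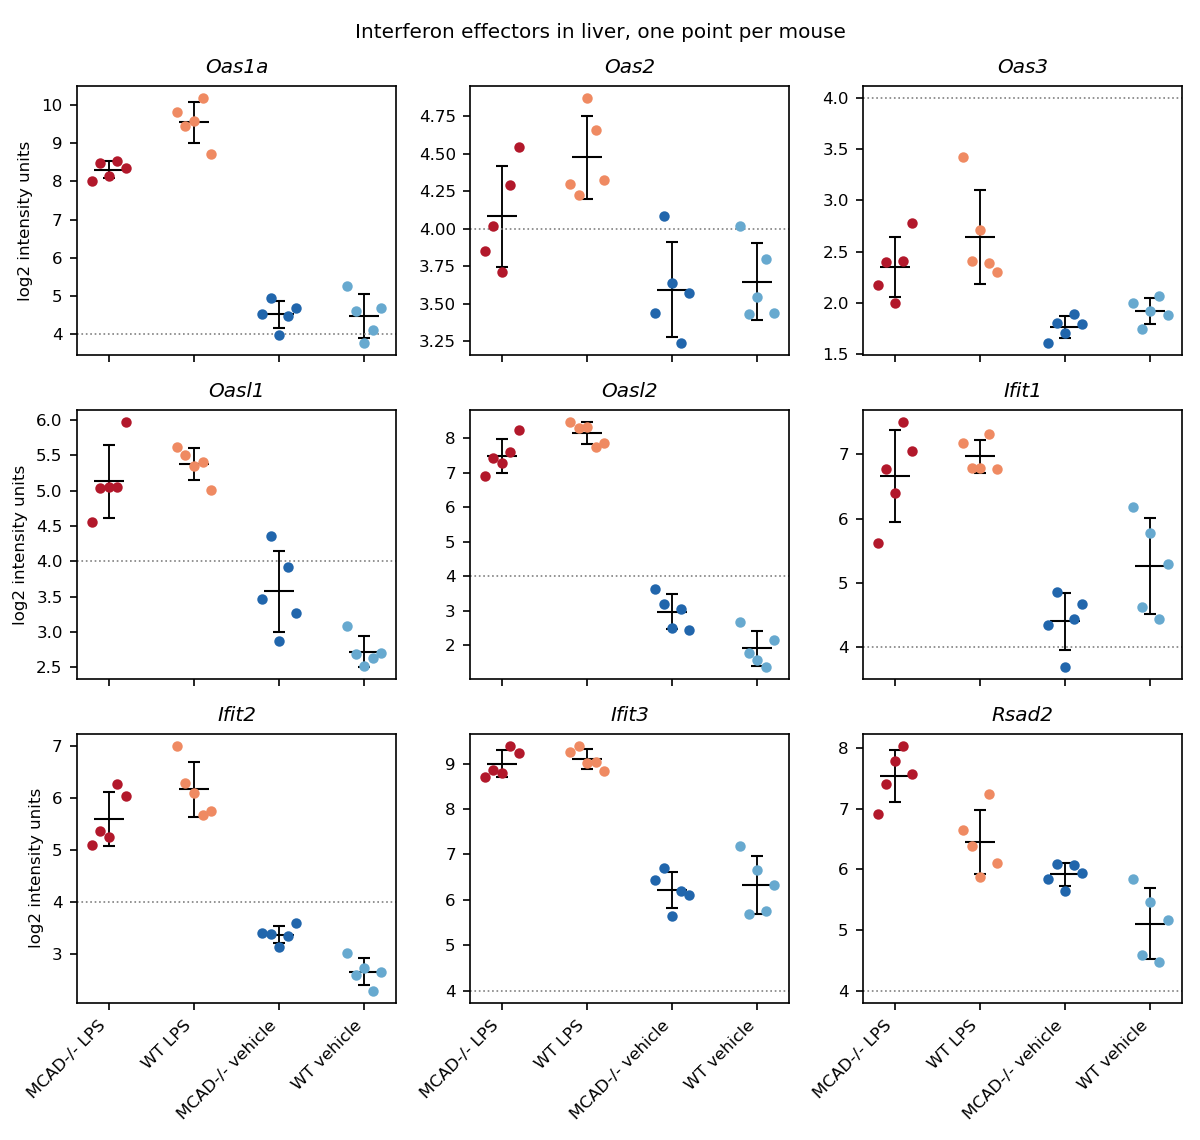
Intensity of 9 genes on the log2 scale (vertical axis) in MCAD-/- LPS, WT LPS, MCAD-/- vehicle and WT vehicle livers; each point is 1 mouse, bars are the mean ± SD of 5 mice, and the dotted line marks 16 units. Oas1a separates the genotypes under LPS (258 to 369 units in MCAD-/- and 423 to 1151 units in WT livers), Rsad2 is highest in MCAD-/- LPS livers, and Oas3 stays below the line.

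Because a gene that is bright only with LPS passes the brightness filter through those arrays, the count of rises was read on the 4 genes that passed on vehicle arrays alone: Oas1a, Ifit1, Ifit3 and Rsad2. All 4 rose in each genotype with no overlap between LPS and vehicle mice on the probe set used. A dimmer probe set of Rsad2 overlapped in WT livers, at 29.7 to 65.4 units with LPS and 7.70 to 33.2 units with vehicle. Its rise there passed (log2 1.36, limma adjusted p = 0.00278, each probe set on its own). The other dimmer one did not overlap in WT livers, at 13.4 to 32.4 against 5.37 to 13.1 units. Without WT vehicle 3 and WT LPS 4, the WT differences were log2 4.72 for Oas1a, 1.75 for Ifit1, 2.88 for Ifit3 and 1.24 for Rsad2, and 0.76, 2.60, 6.26 and 3.64 for Oas2, Oasl1, Oasl2 and Ifit2, each with its call kept. Among the 8015 genes that pass the same way, 34.4% rose in MCAD-/- livers and 36.1% in WT livers. Over all 8774 tested genes, 38.1% rose and 27.6% fell in MCAD-/- livers, and 40% rose and 24% fell in WT livers. Groups did not overlap upwards for 29.6% of tested genes in MCAD-/- livers and 28.9% in WT livers. In WT livers the 3507 rises and 2107 falls became 2760 and 2662 with each array centred on its median, and 2845 and 2589 with a further quantile normalization. The median gene moved with LPS by 0.14 in MCAD-/- and 0.18 in WT livers on the log2 scale, and the folds above include this small shift. Across the 8 tested genes the median difference was 2.24 in MCAD-/- and 2.72 in WT livers, which the filter raises for Oas2, Oasl1, Oasl2 and Ifit2.

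**Figure D3:**
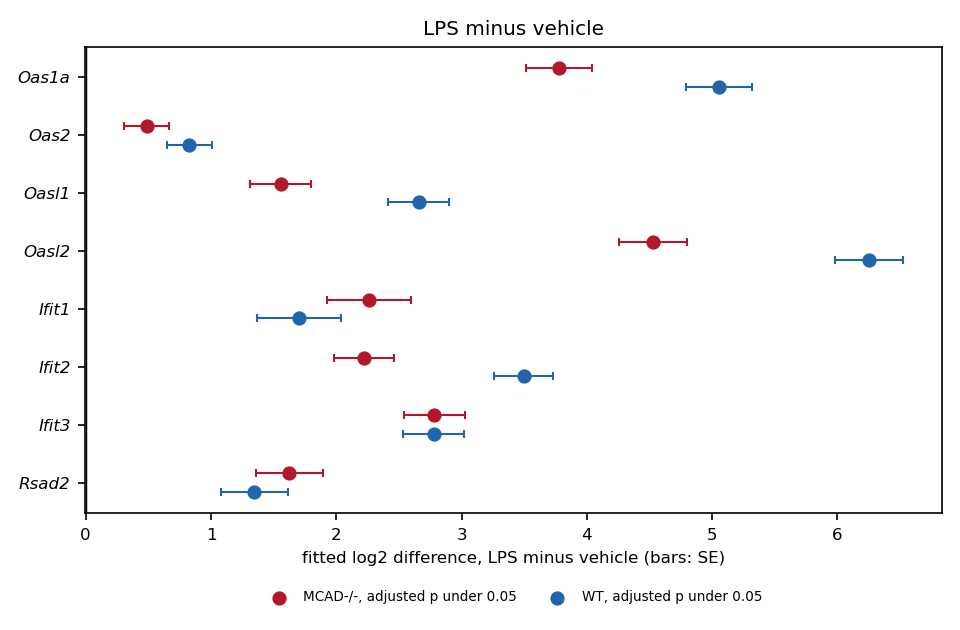
Fitted log2 difference of LPS minus vehicle livers (horizontal axis) for the 8 tested genes, with standard errors, in MCAD-/- (red) and WT (blue) mice; filled points pass an adjusted p of 0.05. All points lie above 0, and the fits of Oas2, Oasl1, Oasl2 and Ifit2 involve vehicle levels under 16 units, so they are not measures of size.

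The cell types that can carry this programme also differed between injections, and in bulk RNA fewer cells of a type and less RNA per cell cannot be told apart. The summed signal of 8 neutrophil and monocyte probe sets, of 11 genes listed, was 2750 to 3276 units in MCAD-/- LPS and 1875 to 3971 units in WT LPS livers, against 46.8 to 217 units in MCAD-/- vehicle and 52.5 to 123 units in WT vehicle livers. Mpo, Csf3r and Cxcr2 never exceeded 16 units. The sum of 12 Kupffer cell and macrophage markers was 621 to 1238 units in MCAD-/- LPS and 534 to 1108 units in WT LPS livers, against 1721 to 2450 units in MCAD-/- vehicle and 956 to 1744 units in WT vehicle livers (Fcgr1 never exceeded 16 units). The sum of 7 hepatocyte markers was 74865 to 77121 units in MCAD-/- LPS and 75419 to 78371 units in WT LPS livers, against 95584 to 103574 and 95550 to 100422 units with vehicle in MCAD-/- and WT livers. All 6 measured T, NK and B cell markers stayed under 16 units. Of 9 tested endothelial markers, 1 rose and 5 fell with LPS in MCAD-/- livers, and 5 rose and 1 fell in WT livers. Of 9 tested Kupffer cell and macrophage markers, 1 rose and 8 fell in MCAD-/- livers, and 1 rose and 6 fell in WT livers. The shares over all tested genes were 38.1% rising and 27.6% falling in MCAD-/- livers, and 40% and 24% in WT livers. The part of these marker shifts in the rise of the antiviral genes was not tested.

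Between genotypes under LPS, Oas1a was lower and Rsad2 higher in MCAD-/- livers. The 5 MCAD-/- mice ran from 258 to 369 units of Oas1a and the 5 WT mice from 423 to 1151, so the groups did not overlap. The difference was 2.36-fold (log2 -1.24 ± 0.26, SE, limma adjusted p = 0.00201). It held in all 33 other settings examined, from log2 -1.45 to -1.08, and was -1.08 (adjusted p = 0.00380) without WT vehicle 3 and WT LPS 4. Rsad2 was 2.13-fold higher (log2 1.09 ± 0.27, adjusted p = 0.00635), although the WT LPS mouse with 151 units lay above the MCAD-/- LPS mouse with 120.0 units. It too held in all 33 other settings, from log2 0.95 to 1.29, and was 1.29 (adjusted p = 0.00191) without those 2 arrays.

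Rsad2 has 3 probe sets, and each put MCAD-/- LPS livers above WT LPS livers. The 2 dimmer ones did not overlap between the genotypes. One measured 92.0 to 212 units in MCAD-/- LPS and 29.7 to 65.4 units in WT LPS livers (log2 1.65, adjusted p = 0.00281), and the other 35.0 to 81.4 against 13.4 to 32.4 units (log2 0.97, adjusted p = 0.0174, both in a fit of each probe set on its own).

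The other 6 genes did not pass the threshold between genotypes under LPS, and their differences were all below 0. Oasl2 differed by log2 -0.67 ± 0.27 (adjusted p = 0.0888), Ifit2 by -0.56 ± 0.24 (adjusted p = 0.0996) and Oas2 by -0.39 ± 0.18 (adjusted p = 0.133). Ifit1 differed by -0.30 ± 0.33 (adjusted p = 0.567), Oasl1 by -0.25 ± 0.25 (adjusted p = 0.521) and Ifit3 by -0.11 ± 0.24 (adjusted p = 0.796). Ifit2 passed without the mouse MCAD-/- LPS 4 (log2 -0.73, adjusted p = 0.0307), and Oasl2 passed without MCAD-/- LPS 5 (log2 -0.85, adjusted p = 0.0315). With array weights both passed (adjusted p = 0.0122 for Ifit2 and 0.0300 for Oasl2), and Oasl2 also passed with values under 16 units set to 16 (adjusted p = 0.00999). In all, 1 of 8 genes was higher and 1 lower, while 8.75% of all tested genes were higher and 11.8% lower. Groups that do not overlap downwards, as for Oas1a, made up 7.36% of tested genes. The median difference was -0.35 over the 8 genes and -0.03 over all tested genes.

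**Figure D4:**
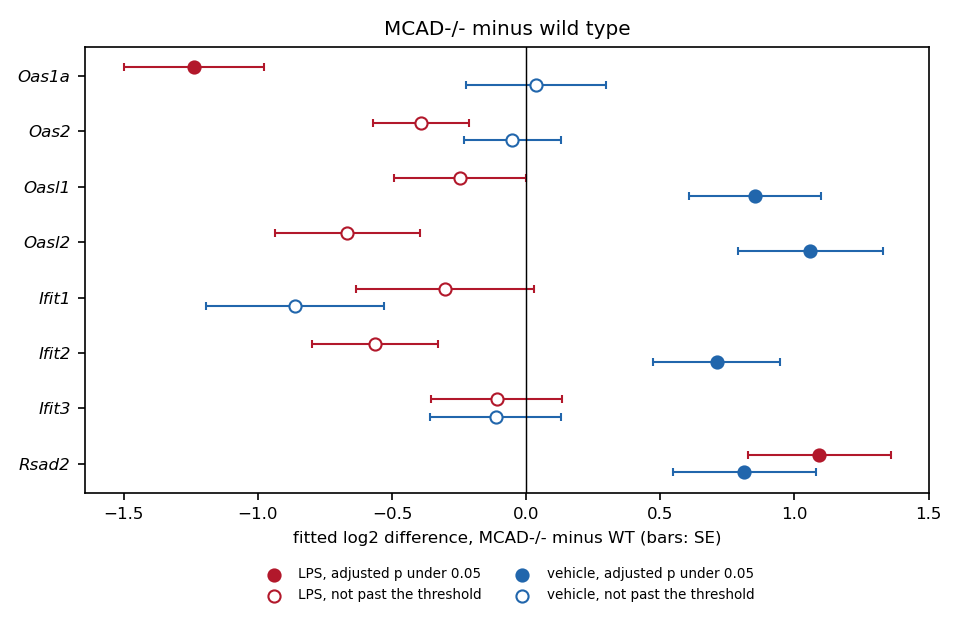
Fitted log2 difference of MCAD-/- minus WT livers (horizontal axis) for the 8 tested genes, with standard errors, under LPS (red) and vehicle (blue); filled points pass an adjusted p of 0.05. Under LPS the filled points are Oas1a at -1.24 and Rsad2 at 1.09. With vehicle they are Oasl2, Oasl1, Rsad2 and Ifit2, of which all but Rsad2 rest on levels under or near 16 units.

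Markers of other cells were set beside these differences. The Kupffer cell and macrophage sums of the LPS groups overlapped, and 0 of 9 tested markers passed. The sinusoidal endothelial sum of 10 markers was 803 to 1382 units in MCAD-/- LPS and 937 to 1498 units in WT LPS livers, with 0 markers higher and 1 lower, Stab2, of 9 tested (Pecam1 never exceeded 16 units). The plasmacytoid dendritic cell sum of 5 probe sets, of 6 genes listed, did not overlap, at 1593 to 1907 units in MCAD-/- LPS and 1914 to 2650 units in WT LPS livers, with 1 of 3 tested markers higher, Irf8, and 1 lower, Bst2. The defining markers Siglech and Ccr9 never exceeded 16 units, and Bst2 is itself an antiviral gene. Bst2 averaged 2094 units in WT LPS livers, so that sum is mostly the level of Bst2 and not of 5 markers. The stellate cell sum was 281 to 414 units in MCAD-/- LPS and 195 to 416 units in WT LPS livers, with 0 of 4 tested markers higher and 2 lower, Lrat and Pdgfrb. Of 4 tested neutrophil and monocyte markers 1 was higher and 0 lower in MCAD-/- LPS livers. The part of these sums in the differences of Oas1a and Rsad2 was not tested.

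With vehicle, Rsad2 was higher in MCAD-/- livers, and 3 further genes passed the test at levels under or near the floor. Rsad2 lay at 49.9 to 68.3 units in MCAD-/- vehicle livers and at 22.2 to 57.4 units in WT vehicle livers, 1.76-fold higher with overlapping groups (log2 0.81 ± 0.27, adjusted p = 0.0428). Without WT vehicle 3 and WT LPS 4 it was log2 0.90 (adjusted p = 0.0216). The call was lost with the mean of its probe sets (log2 0.71, adjusted p = 0.0608), a further quantile normalization (log2 0.70, adjusted p = 0.0691) and no brightness filter (adjusted p = 0.0587). It was also lost without any of 8 mice: WT vehicle 2, 4 and 5 (adjusted p = 0.117, 0.127 and 0.0675), MCAD-/- vehicle 1, 2, 4 and 5 (0.0695, 0.0856, 0.0925 and 0.0658) and MCAD-/- LPS 2 (0.0506). Of its other probe sets, 1 passed (log2 1.20, adjusted p = 0.0289) and 1 did not (log2 0.10, adjusted p = 0.865).

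Oasl2 (log2 1.06 ± 0.27, adjusted p = 0.0105) and Ifit2 (log2 0.71 ± 0.24, adjusted p = 0.0453) lay under 16 units in all 10 vehicle livers, so no fold is given. Oasl1 (log2 0.85 ± 0.25, adjusted p = 0.0216) lay under 16 units in all 5 WT vehicle livers and in 4 of 5 MCAD-/- vehicle livers. With values under 16 units set to 16, none of the 3 passed (log2 0.00 for Oasl2 and Ifit2, and 0.07 for Oasl1, adjusted p = 0.883). The call of Oasl1 was lost without the mouse MCAD-/- vehicle 2 (adjusted p = 0.0647) or 4 (0.0618), and without WT vehicle 3 and WT LPS 4 together (0.0521), where Oasl2 kept its call (log2 0.97, adjusted p = 0.0274) and Ifit2 lost it (log2 0.73, adjusted p = 0.0541). Ifit2 lost its call without any of 11 mice, with adjusted p up to 0.119. These were WT vehicle 2, 3, 4 and 5, WT LPS 2 and 3, MCAD-/- vehicle 1, 2, 4 and 5 and MCAD-/- LPS 2. Ifit2 was the gene of the 4 whose groups did not overlap, which held upwards for 7.68% of tested genes.

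Ifit1 pointed the other way with vehicle, at 13.0 to 29.1 units in MCAD-/- livers and 21.7 to 72.9 units in WT livers (log2 -0.86 ± 0.33, adjusted p = 0.0854). It passed without WT vehicle 4 (log2 -1.07, adjusted p = 0.0410). Ifit3 (log2 -0.11 ± 0.24, adjusted p = 0.810), Oas2 (-0.05 ± 0.18, adjusted p = 0.894) and Oas1a (0.04 ± 0.26, adjusted p = 0.950) did not pass. In all, 4 of 8 genes were called higher and 0 lower, while 9.81% of all tested genes were higher and 6.39% lower. Oasl1, Oasl2 and Ifit2 passed the brightness filter through the LPS arrays, so this count is a description. Of Oas1a, Ifit1, Ifit3 and Rsad2, which passed on vehicle arrays alone, Rsad2 was the one called. The median difference was 0.37 over the 8 genes, the dim ones included, and 0.04 over all tested genes. Markers of other cells were higher in the same MCAD-/- vehicle livers. The endothelial sum was 1731 to 2478 units in MCAD-/- vehicle and 554 to 1207 units in WT vehicle livers, with 8 of 9 tested markers higher. For Kupffer cells and macrophages 6 of 9 tested markers were higher, and for stellate cells 3 of 4. The stellate sum of 6 markers was 440 to 560 units in MCAD-/- vehicle and 225 to 376 units in WT vehicle livers, and Des and Col1a1 never exceeded 16 units. Their part in the higher Rsad2 was not tested.

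The difference between the LPS responses of the genotypes was tested directly, as the response in MCAD-/- minus that in WT livers. Oasl2 (log2 -1.73 ± 0.38, adjusted p = 0.0138) and Ifit2 (-1.27 ± 0.33, adjusted p = 0.0340) passed, both with the smaller response in MCAD-/- livers. All vehicle values of these genes lay under 16 units. With values under 16 units set to 16 the differences were -0.67 (adjusted p = 0.123) and -0.56 (adjusted p = 0.309), and neither passed. Without WT vehicle 3 and WT LPS 4 they were -1.74 (adjusted p = 0.0248) and -1.41 (adjusted p = 0.0330). The Ifit2 call was also lost without any of 11 mice (adjusted p of 0.0507 to 0.0677): WT vehicle 2, 4 and 5, WT LPS 1 and 2, MCAD-/- vehicle 1, 2 and 4, and MCAD-/- LPS 1, 2 and 3. Of 9 tested endothelial markers 4 also had a smaller response in MCAD-/- livers and 0 a larger one (median log2 -1.46), as did 1 of 4 stellate cell markers (median -1.22). Their part in the differences of Oasl2 and Ifit2 was not tested.

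For Oas1a, the difference between a 13.7-fold response in MCAD-/- and a 33.2-fold response in WT livers was log2 -1.28 ± 0.37 and missed the threshold (adjusted p = 0.0542). It passed in 6 of 32 other settings, among them without WT vehicle 1 (log2 -1.47, adjusted p = 0.0192), WT LPS 5 (-1.48, 0.0177) or MCAD-/- vehicle 3 (-1.41, 0.0390), and with values under 16 units set to 16 (-1.24, 0.0436). Without WT vehicle 3 and WT LPS 4 together it was -0.94 (adjusted p = 0.135). Oasl1 differed by -1.10 ± 0.35 (adjusted p = 0.0766) and passed without MCAD-/- vehicle 3 (-1.28, adjusted p = 0.0360) or MCAD-/- LPS 5 (-1.31, adjusted p = 0.0237). With values under 16 units set to 16 it was -0.32 (adjusted p = 0.509). Oas2 (-0.34 ± 0.26, adjusted p = 0.492), Ifit1 (0.56 ± 0.47, adjusted p = 0.550), Rsad2 (0.28 ± 0.38, adjusted p = 0.731) and Ifit3 (0.00 ± 0.35, adjusted p = 0.996) did not pass. In all, 0 of 8 genes were called with a larger and 2 with a smaller response in MCAD-/- livers, while 1.36% of all tested genes had a larger and 2.76% a smaller one. Those 119 larger and 242 smaller responses became 155 and 194 with each array centred on its median, and 171 and 201 with a further quantile normalization. Both called genes, Oasl2 and Ifit2, passed the brightness filter through the LPS arrays, so the count of 2 is a description. Of Oas1a, Ifit1, Ifit3 and Rsad2, which passed on vehicle arrays alone, none was called.

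Within a group, the same mice often stood highest or lowest for several of the genes. WT vehicle 1 had the highest value of its group for 8 of 8 tested genes, while it was highest for 21.8% of all tested genes. MCAD-/- LPS 1 had the lowest value for 7 of 8 genes (17.1% of all tested genes), and the highest values of that group fell to MCAD-/- LPS 4 for 5 genes and to MCAD-/- LPS 5 for 3. Among MCAD-/- vehicle mice, mouse 2 was highest for 6 of 8 genes (20.6%) and mouse 3 lowest for 6 of 8 (29.6%). In the WT LPS group no mouse led so broadly: mice 1 and 4 were each highest for 3 genes and mouse 5 lowest for 4. WT vehicle 1 also had the highest sums of its group for Kupffer cell and macrophage markers (1744 units, against 956 to 1282 in the other 4 mice), for endothelial markers (1207 against 554 to 987) and for neutrophil and monocyte markers (123 against 52.5 to 71.4). MCAD-/- LPS 1 had a macrophage sum of 626 units, close to the lowest of its group. That was 621 units in MCAD-/- LPS 5, with 810 to 1238 units in the other mice. Its endothelial sum was 1382 units, against 803 to 1299 units in the rest of the group. For neutrophil and monocyte markers it was 2886 units, against 2750 to 3276 units. The part of cell makeup in these orders was not tested.

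**Figure D5:**
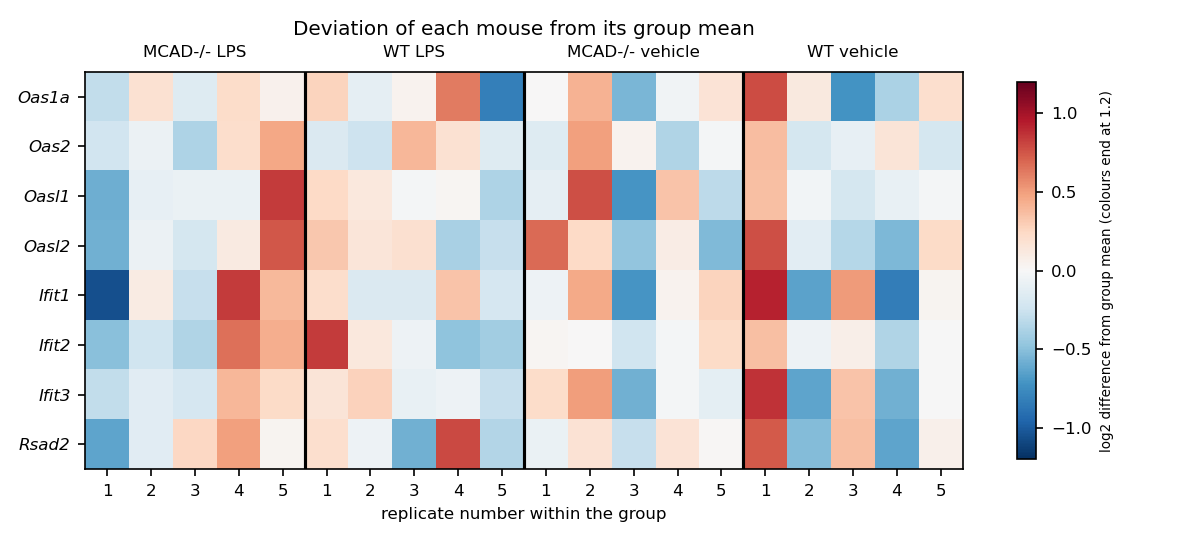
Deviation of each mouse from its group mean on the log2 scale (colour) for the 8 tested genes (rows) and the 20 mice (columns, by group), with the colour scale ending at 1.2 in each direction. WT vehicle 1 is above its group mean in every row, and MCAD-/- LPS 1 is the lowest of its group in 7 of 8 rows.

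The ligands upstream of these genes gave almost no signal. Of 18 type I and III interferon genes, 9 had a probe set and none could be tested. Ifnb1, the interferon beta gene, lay at 2.90 to 3.97 units in MCAD-/- LPS livers, 2.55 to 4.69 in WT LPS livers, 2.87 to 3.99 in MCAD-/- vehicle livers and 4.22 to 5.32 in WT vehicle livers. Ifna2 was the exception in exceeding 16 units, on 2 arrays. Of 10 relatives of the genes (7 with a probe set, such as Oas1b and Ifit1bl1), none exceeded 16 units, the highest being Ifit1bl1 with 12.9 units.

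The receptors and their kinases come next in the pathway. Of 8 tested, 2 rose (Ifnar1 and Il10rb) and 1 fell (Ifnar2) with LPS in MCAD-/- livers, and 4 rose (Ifnar1, Il10rb, Tyk2 and Ifngr1) and 0 fell in WT livers. Over all tested genes, 38.1% rose and 27.6% fell in MCAD-/- livers, and 40% rose and 24% fell in WT livers. Ifnar1 rose 1.55-fold in MCAD-/- (adjusted p = 0.000167) and 1.69-fold in WT livers (adjusted p = 2.29e-05). Ifnar2 fell 1.24-fold in MCAD-/- livers (adjusted p = 0.0374) and differed by log2 -0.25 in WT livers (adjusted p = 0.0875). Between genotypes 0 of 8 passed under LPS, and Ifnar1 differed by log2 -0.29 (adjusted p = 0.101). With vehicle 2 were higher in MCAD-/- livers, Il10rb, a subunit of the type III receptor (1.79-fold, adjusted p = 0.0242), and the interferon gamma receptor Ifngr1 (1.45-fold, adjusted p = 0.0338). Over all tested genes 9.81% were higher and 6.39% lower with vehicle. The difference between LPS responses passed for 0 of the 8 genes.

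Among 6 tested STAT and IRF factors, 4 rose with LPS in MCAD-/- livers (Irf7, Irf9, Irf1 and Stat2) and 3 in WT livers (Irf7, Irf9 and Irf1), while 1 fell in each genotype, Irf2. All 6 passed the brightness filter on vehicle arrays alone, and the shares of genes passing that way that rose were 34.4% in MCAD-/- and 36.1% in WT livers. Irf7, which amplifies interferon production, rose 17.9-fold in MCAD-/- (adjusted p = 2.27e-13) and 33.8-fold in WT livers (adjusted p = 1.25e-14). Its response was smaller in MCAD-/- livers by log2 -0.92 ± 0.25 (adjusted p = 0.0430), and it was the factor of this list that passed that test. Over all tested genes 2.76% had a smaller response. Vehicle levels of Irf7 lay near the floor, at means of 26.0 units in MCAD-/- and 19.4 units in WT livers. Of the WT vehicle livers, 4 of 5 exceeded 16 units. The call of Irf7 was not examined under other settings. Irf9 rose 2.29-fold in MCAD-/- (adjusted p = 5.49e-06) and 1.71-fold in WT livers (adjusted p = 0.000639), and was 1.49-fold lower in MCAD-/- than in WT livers with vehicle (adjusted p = 0.0284). Stat2 rose 2.64-fold in MCAD-/- livers (adjusted p = 0.00735) and differed by log2 0.26 in WT livers (adjusted p = 0.613). The difference between those responses did not pass (log2 1.14 ± 0.60, adjusted p = 0.307). Under LPS, Irf3, which carries the TLR4 signal to interferon beta, was 1.75-fold lower in MCAD-/- livers (adjusted p = 0.00294), and Irf2 was 1.53-fold lower (adjusted p = 0.00996). These were 2 of the 6 factors, with 0 higher, while 11.8% of all tested genes were lower and 8.75% higher under LPS. With vehicle 1 of the 6 was lower, Irf9, while 6.39% of all tested genes were. Irf7 differed by log2 -0.49 (adjusted p = 0.0560).

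RNA and DNA sensors detect foreign nucleic acid and feed the same pathway. Of 9 tested, 7 rose and 0 fell with LPS in each genotype. Of the 7 that passed the filter on vehicle arrays alone, 5 rose in each genotype, against 34.4% of such genes in MCAD-/- and 36.1% in WT livers. Zbp1 passed through the LPS arrays. Zbp1, a sensor of Z-form nucleic acid, was at least 22.9-fold higher in MCAD-/- (adjusted p = 4.89e-15) and at least 19.6-fold higher in WT livers (adjusted p = 2.32e-14). Under LPS 3 of the 9 were lower in MCAD-/- livers, where 11.8% of all tested genes were, and none was higher: Dhx58, a regulator of the RNA helicase sensors (2.10-fold, adjusted p = 0.0136), the kinase Ikbke (1.53-fold, adjusted p = 0.0163) and Ifih1, the sensor MDA5 of long double-stranded RNA (1.28-fold, adjusted p = 0.0287). With vehicle Ikbke alone of the 9 passed, 1.66-fold lower in MCAD-/- livers (adjusted p = 0.00627), while 6.39% of all tested genes were lower. In the LPS response 0 of 9 differed. Of 2 tested genes that act on the oligoadenylate signal, Pde12, which degrades oligoadenylates, rose 2.03-fold in MCAD-/- (adjusted p = 2.31e-05) and 1.83-fold in WT livers (adjusted p = 0.000137). Abce1, which counters that signal, rose 1.37-fold in MCAD-/- livers (adjusted p = 0.000751) and differed by log2 0.23 in WT livers (adjusted p = 0.0626). Neither passed between genotypes, under LPS or with vehicle, or in the difference between responses.

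The enzymes that attach and remove Isg15 rose with LPS, 5 of 5 tested in each genotype. Without Uba7, which passed the filter through the LPS arrays, they were 4 of 4, against 34.4% of genes passing on vehicle arrays in MCAD-/- and 36.1% in WT livers. Usp18, the protease that removes Isg15 and dampens the interferon receptor, rose 4.53-fold in MCAD-/- (adjusted p = 6.12e-07) and 4.27-fold in WT livers (adjusted p = 1.08e-06). It was lower in MCAD-/- than in WT livers under LPS (1.84-fold, adjusted p = 0.0233) and with vehicle (1.95-fold, adjusted p = 0.0165). Uba7, the activating enzyme, was 1.76-fold lower in MCAD-/- livers under LPS (adjusted p = 0.0342), and Herc6, the mouse ligase, was 1.84-fold higher (adjusted p = 0.0391). Under LPS 2 of the 5 were thus lower and 1 higher, while 11.8% of all tested genes were lower and 8.75% higher. With vehicle 1 of the 5 was lower, while 6.39% of all tested genes were. None of the 5 differed in the LPS response.

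Of 33 tested further antiviral effectors, 30 rose and 0 fell with LPS in MCAD-/- livers, and 29 rose and 0 fell in WT livers. Of the 21 that passed the filter on vehicle arrays alone, 19 rose in each genotype, against 34.4% of such genes in MCAD-/- and 36.1% in WT livers. Between genotypes they were split: under LPS 5 were higher and 8 lower in MCAD-/- livers (8.75% and 11.8% of all tested genes), and with vehicle 5 were higher and 7 lower (9.81% and 6.39%). The LPS response was larger in MCAD-/- livers for Slfn5 and Slfn8 and smaller for Samhd1. Over all tested genes 1.36% had a larger and 2.76% a smaller response. Slfn5 and Slfn8, of the Schlafen family, were at least 2.76-fold (adjusted p = 1.53e-08) and at least 1.60-fold (adjusted p = 9.65e-08) higher in MCAD-/- than in WT livers under LPS. Both exceeded 16 units in all 5 MCAD-/- LPS livers and in 0 of 5 WT LPS livers. Slfn5 also exceeded it in 0 of 5 MCAD-/- vehicle livers. The 5 MCAD-/- LPS arrays alone were enough for both to pass the brightness filter, so their calls are descriptions. Xdh, an enzyme of purine breakdown placed in this list, was 3.16-fold higher in MCAD-/- livers with vehicle (adjusted p = 4.69e-08), and Parp9 was 1.71-fold lower (adjusted p = 0.000190). Xaf1 has 2 probe sets that disagree. The brighter one measured 6.37 to 8.73 units in MCAD-/- LPS and 580 to 853 units in WT LPS livers, while the other measured 324 to 478 units in MCAD-/- LPS and 10.3 to 21.9 units in WT LPS livers. The difference between LPS responses was log2 -2.68 on the brighter and 3.55 on the other (adjusted p = 1.43e-06 and 5.43e-07, each probe set on its own). The counts above use the brighter one, and no direction is given for that gene. Promoters were at hand for 33 genes of this list of 42, and the ISRE core was in 14 of them, against 1079 of all 27025 genes. It was in 2 of 6 STAT and IRF factors, 2 of 10 sensors and 0 of 8 receptors and kinases with a promoter. Counts were 0 of 4 for the Isg15 enzymes and 0 of 2 for the oligoadenylate signal. For the family relatives they were 5 of 7 and for the ligands 10 of 17.

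The genes whose pattern over the 20 arrays was most like the mean of the 8 were found by the root mean square difference of centred log2 values. The closest was Exoc4, a subunit of the exocyst, at 0.30, with levels of 245 units in MCAD-/- LPS, 304 in WT LPS, 53.9 in MCAD-/- vehicle and 46.2 in WT vehicle livers (geometric means). Trim30a followed at 0.33, Tlr2, a receptor for bacterial lipoproteins, at 0.34, and Nfkbie, an inhibitor of NF-kappa-B, and Coro1a, an actin regulator of white blood cells, at 0.35 each. Closest to Oas1a were Irf7 at 0.48, the guanylate-binding protein gene Gbp3 at 0.54 and the protease inhibitor gene Timp1 at 0.60. Rsad2 was most like Irf8, a factor of myeloid cells, at 0.38, Pla1a at 0.39 and Mfap3 at 0.41. Irf8 averaged 60.5 units in MCAD-/- LPS, 33.4 in WT LPS, 26.7 in MCAD-/- vehicle and 11.1 in WT vehicle livers. Rsad2 averaged 186, 87.4, 60.4 and 34.4 units in the same groups. Irf8 was picked for its likeness over these same arrays, so a shared order of the groups is no separate result. The WT vehicle mean of Irf8 lay under 16 units.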

How the data were processed

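Total liver RNA of 20 mice was hybridised to Affymetrix arrays with biotin label, 1 array per mouse. The authors deposited linear intensity values for 45101 probe sets, made with GCRMA per the submitters' processing notes (version not given in the sources used here). GCRMA puts all arrays on a common scale, so a shift shared by all transcripts would not show. Groups and replicate numbers came from the labels, and no arrays were identical.

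Values were taken to log2 with no pseudocount. Names came from the platform's probe table, which gave 34945 probe sets 1 symbol. The 932 with several symbols, the 9160 it does not name and 64 controls were not used. Each of 18193 genes was read from its brightest probe set, and 18031 matched RefSeq (GRCm38.p6) by gene ID. A gene over 16 units on at least 5 arrays was tested (8774 genes). A model of the 4 group means was fitted with limma 3.58.1 in R 4.3.3, on all 20 arrays, with Benjamini-Hochberg adjustment over the 8774 genes, two-sided, threshold 0.05. Every adjusted p comes from limma. The model was tested on simulated data with known changes.

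The 10 genes and the gene lists (family relatives, ligands, receptors and kinases, STAT and IRF factors, sensors, oligoadenylate signal, Isg15 enzymes, further effectors and cell markers) were chosen with earlier results of these data known, so their counts are descriptions. Other genes named are at most 3 per list with the smallest adjusted p in a comparison, a few fixed ones (Ifnb1, Ifnar1, Ifnar2, Stat2, Irf9, Irf7, Usp18) and the nearest patterns. Samhd1, single cell markers and other genes named without values were chosen after their values were seen. Alternatives were the replicate number as a block, other filters, floors, probe set summaries, scalings, priors, array weights, fits of the compared groups alone, a 2-fold minimum, and arrays left out.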

Additional observations from a re-analysis of the deposited data

Results flagged for a closer look

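Of the 8 tested genes, 2 had a different LPS response in the 2 genotypes by the test of that difference. The response of Oasl2 was smaller in MCAD-/- than in WT livers by log2 -1.73 (limma adjusted p = 0.0138), and that of Ifit2 by log2 -1.27 (adjusted p = 0.0340). With values under 16 units set to 16, neither passed. The values of each tested gene in each group of 5 mice, 32 sets in all, were also examined for a mouse far from the other 4 by Dixon's criterion, which chance meets in about 1 set in 20, and 0 sets met it.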

How the results depend on the processing

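No call of the 8 genes changed direction under the alternatives tried. Calls were kept in every setting for 6 of 8 genes between genotypes under LPS, 3 of 8 between genotypes with vehicle, 7 of 8 for LPS in each genotype and 4 of 8 for the difference between responses. The count between genotypes with vehicle, 4 genes, fell to 2 with the replicate number as a block, with no filter, with each probe set on its own and without WT vehicle 3 and WT LPS 4 together. It fell to 1 with values under 16 units set to 16 and with a 2-fold minimum, and lay at 1 to 4 with a mouse left out. Between genotypes under LPS the count of 2 became 4 with array weights and lay at 2 to 3 with a mouse left out. For the difference between responses the count of 2 became 1 with the replicate block and with values set to 16, 4 with array weights, and 1 to 4 with a mouse left out. For LPS against vehicle the count of 8 lay at 8 in WT and at 7 to 8 in MCAD-/- livers with a mouse left out. The cause of these changes was not tested, beyond what setting low values to 16 does by construction. Same-numbered mice are not known to be paired: deviations from group means correlated at -0.12 to 0.28, and 10 of 40 comparisons of a mouse with another group were best at its own number. The block otherwise changed no call but Rsad2 (adjusted p = 0.0654) and Ifit2 (0.0673) between genotypes with vehicle and Ifit2 (0.0528) in the difference between responses.

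Over all genes, array weights moved the count from 1422 to 2855 between genotypes with vehicle and from 361 to 879 for the difference between responses, which fell to 236 with the stricter filter of 64 units. Each probe set on its own gave 8511 calls for LPS in WT and 8734 in MCAD-/- livers, against 5614 and 5768, with more features tested. A 2-fold minimum left 432, 429, 2008, 2113 and 238 genes between genotypes with vehicle, between genotypes under LPS (1806 without it), for LPS in WT, for LPS in MCAD-/- livers and for the difference between responses. The Acadm difference lay at log2 -6.90 to -6.12 with vehicle and -6.04 to -5.06 under LPS with a mouse left out (exact permutation p = 0.0159, the smallest possible there). The stricter filter left out Oas2 and Oasl1, and a fit of the compared groups alone does not exist for the difference between responses. Signal near background limits Oas2, Oasl1, Oasl2 and Ifit2 in vehicle livers.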
